A study of Homo sapiens with 16 samples.

Results

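The 33 genes described here are interferon-stimulated genes (ISGs) and genes of class I antigen presentation, taken by symbol from a table of 26475 genes. They were measured by RNA-seq in MCF10A, a human breast epithelial line that became immortal in culture and does not form tumours, in 16 libraries that formed 4 groups of 4. All cells grew in the same medium with horse serum and cholera toxin. The control group received DMSO, 2 normal media changes and no collagen. The other 3 groups received collagen at 0.05 mg/mL for the last 24 h, with DMSO (collagen alone), with the DDR1 kinase inhibitor DDR1-IN-1 at 2 μM (DDR1i) or with AI-10-104 at 5 μM (RUNXi), a compound that keeps RUNX factors from their partner CBFβ. DMSO or inhibitor was present for 48 h in all. The labels do not say whether replicates were separate cultures. P-values therefore measure only the spread between these libraries, which may be technical.

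Interferons are secreted proteins that bind receptors on the cell surface and, through JAK kinases, activate transcription factors such as STAT2. With IRF9, phosphorylated STAT2 acts in a complex that binds the interferon-stimulated response element in the promoters of ISGs, whose products block the replication of viruses at many steps. Class I antigen presentation shows peptides from inside the cell to cytotoxic T cells, and its genes are active in most nucleated cells and respond further to interferon.

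The core of the interferon-stimulated response element was searched as GAAANNGAAA, on both strands and with overlapping matches counted, from 250 bases before to 50 bases after each start in the RefSeq promoter table (GRCh38.p14). It lay in the promoters of 1195 of 27305 genes (4.38%) and of 18 of the 27 members with an entry (66.7%). IFITM2, USP18, IRF7, IFIT2, OASL and OAS2 had no entry. A match is a description of the letters and not of binding. The 150 bases before the start are shown for 6 members, with the matches in capitals, because they carry the same short motif in genes of very different level. ISG15 and IFIT1 averaged 3.41 and 1.43 CPM (counts scaled to the library total), and IFIT5, OAS3, IFITM3 and B2M each averaged 10 CPM or more. Per kilobase of transcript, ISG15 (5.36 CPM) lay close to IFIT5 (6.91 CPM) and above IFIT1 (0.333 CPM). Capitals that run on for more than 10 letters are overlapping matches, TTTC at the ends of a match marks one on the opposite strand, and the last match of IFIT5 runs past the start.
ISG15 (chr1:1013347-1013496, plus strand): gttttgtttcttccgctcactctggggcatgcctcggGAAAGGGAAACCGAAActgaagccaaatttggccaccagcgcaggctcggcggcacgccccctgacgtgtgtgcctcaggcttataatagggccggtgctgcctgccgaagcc
IFIT1 (chr10:89392473-89392622, plus strand): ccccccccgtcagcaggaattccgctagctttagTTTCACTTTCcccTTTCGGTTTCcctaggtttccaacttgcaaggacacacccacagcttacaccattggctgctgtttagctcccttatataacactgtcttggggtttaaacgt
IFIT5 (chr10:89414418-89414567, plus strand): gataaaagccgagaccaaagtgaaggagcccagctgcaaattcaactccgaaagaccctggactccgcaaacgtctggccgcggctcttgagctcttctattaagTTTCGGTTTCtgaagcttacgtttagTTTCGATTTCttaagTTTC
IFITM3 (chr11:320861-321010, minus strand): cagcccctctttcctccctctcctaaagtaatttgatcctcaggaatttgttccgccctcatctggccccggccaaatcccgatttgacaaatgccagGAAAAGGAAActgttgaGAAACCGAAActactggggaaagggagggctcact
OAS3 (chr12:112938324-112938473, plus strand): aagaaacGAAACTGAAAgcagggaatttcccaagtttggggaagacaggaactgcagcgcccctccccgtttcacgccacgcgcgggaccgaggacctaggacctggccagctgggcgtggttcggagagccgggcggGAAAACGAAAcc
B2M (chr15:44711367-44711516, plus strand): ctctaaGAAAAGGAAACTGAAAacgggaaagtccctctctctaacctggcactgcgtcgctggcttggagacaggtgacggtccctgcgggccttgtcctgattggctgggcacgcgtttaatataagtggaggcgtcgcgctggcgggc
Members with and without a match overlapped in level. The mean level per kilobase of transcript ranged from 0.0787 to 389 CPM in members with a match (median 2.02) and from 0 to 118 in those without (median 4.24). Of the members with an entry, 5 of 9 that averaged 10 CPM or more and 13 of 18 below that had a match.

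Values are raw read counts per gene, scaled to CPM with edgeR's TMM factors over all 16 libraries, and a level per length divides by the length of the canonical transcript on GRCh37. Total counts ranged from 12184619 to 44332378 per library. Collagen replicate 3 was removed by the study and is left out of the tests here, so that collagen alone has 3 libraries in each comparison. Control replicates 2 and 3 had the lowest totals of the control group (12184619 and 16123386) and no count for 8 members each. The markers of basal breast and other epithelial cells were present in full, with summed levels of 10632 to 20480 CPM over 6 genes and 2265 to 4070 CPM over 5. Of the leukocyte markers 3 of 8 averaged over 1 CPM (sum 12.02 to 52.9 CPM) and 2 had no counts, and of the plasmacytoid dendritic cell markers 1 of 6 did (7.27 to 13.9 CPM) and 3 had none. Of the fibroblast markers 2 of 6 averaged over 1 CPM (sum 5.44 to 32.9 CPM), and of the endothelial markers 0 of 4 did (0 to 3.55 CPM). The part of such cells in the levels below was not tested.

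The members spanned a wide range of levels. As a share of all member counts over the 16 libraries, the 10 members that averaged 10 CPM or more (B2M, IFITM3, IFITM2, HLA-C, HLA-B, TAP1, OAS3, IFIT5, STAT2 and IRF1) made up 94.9%. The 15 members from 1 to under 10 CPM made up 4.81%, and the 8 members under 1 CPM (IFITM1, IFI44, IFI27, IFIT2, OASL, OAS2, MX1 and XAF1) made up 0.314%. Together the members took 0.111% to 0.143% of the counts of a library.

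**Figure D1:**
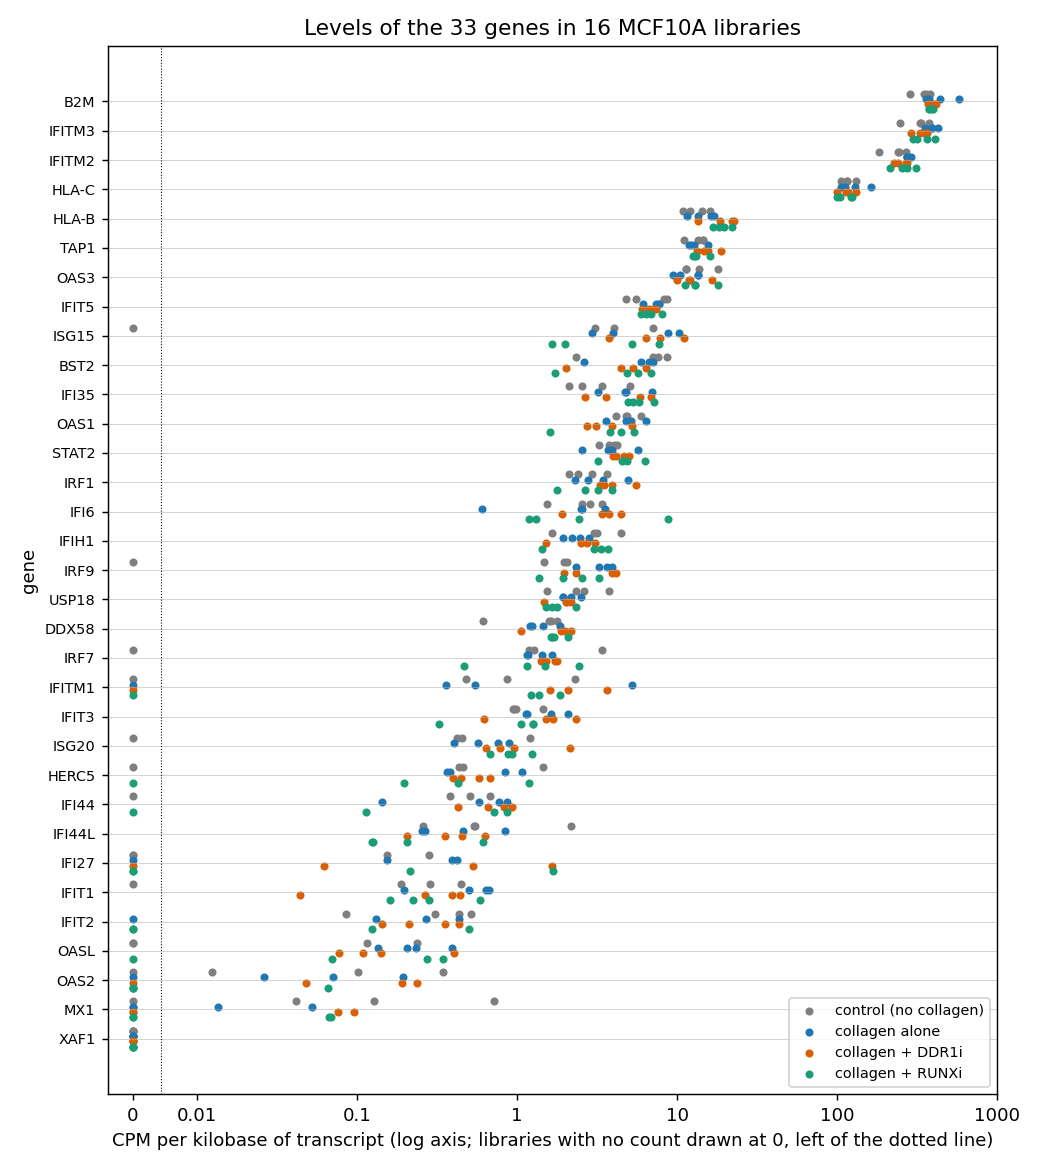
Each point is a library and each row a gene, in order of its mean level in CPM per kilobase of transcript (log axis), with libraries without a count drawn left of the dotted line. The points of the 4 groups overlap for most genes, and B2M, IFITM3, IFITM2 and HLA-C lie apart from the rest at 99.4 or more in every library.

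Of the class I antigen presentation genes among the members, B2M and HLA-C were high in every library, and HLA-B and TAP1 were lower. B2M, the light chain shared by all class I molecules, had the highest level per length of the members, 389 CPM per kb, and HLA-C, a class I heavy chain, had 118. HLA-B, another heavy chain, had 16.6 and TAP1, a subunit of the transporter that carries peptides to them, had 13.96. HLA-B and HLA-C are close paralogs, so that counts can be split between them in a way that the counting decides.

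B2M measured 327, 359, 270 and 337 CPM in control replicates 1 to 4 and 355, 413, 338 and 544 CPM in collagen replicates 1 to 4. With DDR1i it measured 392.1, 358, 348 and 377 CPM and with RUNXi 354, 373, 370 and 352 CPM. Collagen replicate 4 was the highest of all 16, its TMM factor was 0.894, and it was also the highest for HLA-C (251 CPM) and IFITM3 (260 CPM). The part of the scaling in these values was not tested.

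The IFITM proteins restrict entry of enveloped viruses, and 2 of the 3 measured here were among the most abundant members. IFITM3 reached 347 and IFITM2 256 CPM per kb, against 1.35 for their neighbour IFITM1. The 3 genes lie side by side on chromosome 11 (303655 to 329475, GRCh37), and the lowest library of IFITM2 (183 CPM per kb) lay above the highest of IFITM1 (5.25). They are close paralogs, and reads that fit several of them cannot be told apart here. IFITM3 measured 202, 201, 228 and 151 CPM in the control libraries and 237, 239, 215 and 260 CPM with collagen alone. It measured 201, 177, 222 and 213 CPM with DDR1i and 223, 192, 248 and 181 CPM with RUNXi.
IFITM2 measured 243, 271, 242 and 184 CPM in the control libraries and 273, 290, 273 and 274 CPM with collagen alone. It measured 276, 227, 272 and 240 CPM with DDR1i and 255, 272, 310 and 213 CPM with RUNXi. For both genes the lowest of the 16 libraries was control replicate 4. BST2, which tethers budding virus to the cell surface, had 5.33 CPM per kb, and ranged from 1.73 to 8.71 CPM. Its lowest value in each group was that of replicate 4 (2.35 CPM in the control, 2.63 with collagen alone, 2.03 with DDR1i and 1.73 with RUNXi).

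Some of the IFIT proteins bind viral RNA. IFIT5 had 6.91 CPM per kb, against 1.28 for IFIT3, 0.333 for IFIT1 and 0.247 for IFIT2, although the 4 genes lie together on chromosome 10 (91043451 to 91181362, GRCh37). The lowest library of IFIT5 (4.797 CPM per kb) lay above the highest of IFIT3 (2.33), IFIT1 (0.666) and IFIT2 (0.515). The OAS enzymes make oligoadenylates that activate RNase L, and their cluster on chromosome 12 (113343661 to 113449528, GRCh37) held the same kind of spread. OAS3 had 12.9 CPM per kb, above the highest library of OAS1 (6.39) in each of its libraries, and OAS2 had 0.0810. OASL, on the same chromosome outside that cluster, had 0.172, and the exonuclease ISG20 had 0.810. OAS3 was highest in replicate 4 of each group (119 CPM in the control, 89.2 with collagen alone, 109 with DDR1i and 118 with RUNXi). Libraries numbered 4 deviated together from their group means over all genes (correlations of 0.16 to 0.28 in 6 of 6 pairs).

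Classical markers of an interferon response were low. MX1, a dynamin-like GTPase that blocks virus replication, averaged 0.0787 CPM per kb and had no count in 7 libraries. Its highest value was 1.99 CPM in control replicate 2. XAF1, a binding partner of the apoptosis inhibitor XIAP, had no count in any library, which allows it up to 0.0667 to 0.238 CPM depending on the library (3 counts, covering counting error only). IFI27 had no count in 6 libraries and reached 1.20 CPM in RUNXi replicate 3. Of the other members of this group, IFI35 had 4.68, IFI6 2.93, IFI44 0.529 and IFI44L 0.504 CPM per kb.

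ISG15, the ubiquitin-like protein that cells attach to others in an interferon response, had 5.36 CPM per kb and ranged from 0 to 7.01 CPM. Its ligase HERC5 had 0.558 CPM per kb and USP18, which removes it, had 2.12. The RNA sensors DDX58 (RIG-I) and IFIH1 (MDA5) had 1.60 and 2.69 CPM per kb. Of the transcription factors, STAT2 had 4.24, IRF1, an activator of antigen presentation genes, 3.27, IRF9 2.51 and IRF7, which amplifies interferon production, 1.45.

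The ligands of the pathway that were looked up were at or near 0. Of the 10 interferon genes looked up, IFNE, IFNA1 and IFNL1 had any counts and none had enough to be tested. IFNA1 and IFNA2 were the only IFNA genes among them, and the other IFNA genes were not examined. IFNE had up to 12 counts in a library and 82 in all. The 31 counts of IFNA1 all came from RUNXi replicate 1, in which ISG15 had 1.06, IFIT1 1.22 and MX1 0 CPM. In the same library IFI6 had 7.17 CPM, the highest of all 16 (the next had 3.61), and HERC5 (4.16 CPM) and IFI44 (1.47 CPM) were the highest of their group. IFIT3 (0.774 CPM), OAS1 (2.61 CPM) and IRF1 (6.28 CPM) were there at their lowest of all 16 libraries. IRF7 (0.896 CPM) and IRF9 (2.24 CPM) were the lowest of their group. The 6 counts of IFNL1 all came from DDR1i replicate 1. IFNB1 had no count in any library. Most receptor chains were present, IFNAR1 at 31.3 to 47.8 CPM, IFNAR2 at 8.10 to 18.8 CPM and IFNGR2 at 70.6 to 106 CPM. IL10RB had 9.02 to 26.9 CPM and IFNGR1 averaged 45.9 CPM. The receptor chain IFNLR1 was low, at 0 to 2.34 CPM (mean 1.41). Of the receptor-bound kinases, TYK2 had 52.6 to 121 CPM and JAK1 45.3 to 101 CPM. JAK2 was lower, with a mean of 5.79 CPM and a minimum of 0.898 CPM in collagen replicate 1. Of the 13 receptor and JAK-STAT genes, 9 averaged over 10 CPM.

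The comparisons asked whether blocking DDR1 or RUNX in collagen-treated cells moved these genes, and whether collagen itself did. Of the 33 members, 30 could be tested in both fits, and MX1, IFI27 and XAF1 had too few counts.

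None of the 30 members differed between DDR1i and collagen alone, where 2.47% of 13548 genes did (Benjamini-Hochberg adjusted p under 0.05 in the quasi-likelihood test of edgeR). In the edgeR test 1 member had an unadjusted p under 0.05, where 18.0% of all genes tested did. DESeq2 called 857 genes, with 0 members among them. Estimates lay above 0 for 14 members and below it for 16, with a median log2 fold change of -0.06 against 0.0037 for all genes. For 3 members the 2 groups did not overlap, as for 15.1% of all genes tested: IFITM3 and IFIT5 were lower and STAT2 higher in every DDR1i library. This holds only without collagen replicate 3, which had 215 CPM of IFITM3 and 24.6 CPM of IFIT5, each within the range of the DDR1i libraries, and 24.9 CPM of STAT2, above it. The gap was narrow for 2 of the 3. IFIT5 was at most 29.83 CPM with DDR1i and at least 29.88 CPM in the collagen libraries tested. STAT2 was at least 17.5 CPM with DDR1i and at most 17.2 CPM in those collagen libraries.
IFITM3 averaged 203 ± 19.7 CPM with DDR1i (SD, n = 4) and 246 ± 12.9 CPM with collagen alone (SD, n = 3), a log2 fold change of -0.27 ± 0.12 (SE) and an adjusted p of 0.235 by edgeR. B2M averaged 369 ± 19.8 and 437 ± 96.8 CPM (-0.24 ± 0.12, edgeR adjusted p = 0.292). Its log2 fold change was -0.39 without collagen replicate 1, -0.06 without collagen replicate 4 and -0.07 without replicate 4 of every group, and with a trend of counts with transcript length removed from each library it was -0.11. HLA-B averaged 29.5 ± 6.42 and 23.0 ± 4.54 CPM (0.35 ± 0.20, edgeR adjusted p = 0.358). Collagen replicate 1 had 17.8 CPM and the other 2 libraries tested had 25.0 and 26.2 CPM, and without replicate 1 the log2 fold change was 0.19 for DDR1i and 0.18 for RUNXi. STAT2 averaged 19.6 ± 2.12 and 14.9 ± 3.27 CPM (0.40 ± 0.23, edgeR adjusted p = 0.373). With collagen replicate 3 included its log2 fold change was 0.17, without collagen replicate 4 it was 0.23 and without replicate 4 of every group 0.26. OAS1 averaged 6.09 ± 1.78 and 8.88 ± 1.37 CPM (-0.55 ± 0.35, edgeR adjusted p = 0.452).

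No member differed between RUNXi and collagen alone either, where 4.05% of genes did. In the edgeR test 2 members had an unadjusted p under 0.05, where 21.1% of all genes tested did. DESeq2 called 1160 genes, with 0 members among them. The median log2 fold change was -0.23 against 0.0051 for all genes, with 10 estimates above 0 and 20 below, and the groups overlapped for every member (18.2% of all genes did not overlap).
B2M averaged 362 ± 10.6 CPM with RUNXi (SD, n = 4), a log2 fold change of -0.27 ± 0.12 (SE) with an edgeR adjusted p of 0.198. That estimate was -0.42 without collagen replicate 1, -0.08 without collagen replicate 4 and -0.07 without replicate 4 of every group. STAT2 averaged 20.8 ± 5.61 CPM (0.48 ± 0.23, edgeR adjusted p = 0.218), and its log2 fold change was 0.32 without collagen replicate 4, 0.31 without RUNXi replicate 3, 0.30 without replicate 4 of every group and 0.25 with collagen replicate 3 included. HLA-B averaged 29.4 ± 3.51 CPM (0.35 ± 0.20, adjusted p = 0.312), IFITM3 211 ± 30.5 CPM (-0.22 ± 0.12, adjusted p = 0.318) and HLA-C 172 ± 18.6 CPM (-0.24 ± 0.14, adjusted p = 0.323). HLA-C averaged 204 ± 44.7 CPM with collagen alone (SD, n = 3), and its estimate was -0.40 without collagen replicate 1 and -0.06 without collagen replicate 4. Without replicate 4 of every group HLA-C and IFITM3 both had an estimate of -0.11. With the trend of counts with transcript length removed from each library, the RUNXi estimates of B2M, IFITM3 and HLA-C were -0.06, -0.06 and -0.05, and that of HLA-B was 0.54. Both inhibitors were compared with the same 3 collagen libraries, so that a library that is high or low there moves both estimates.

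**Figure D2:**
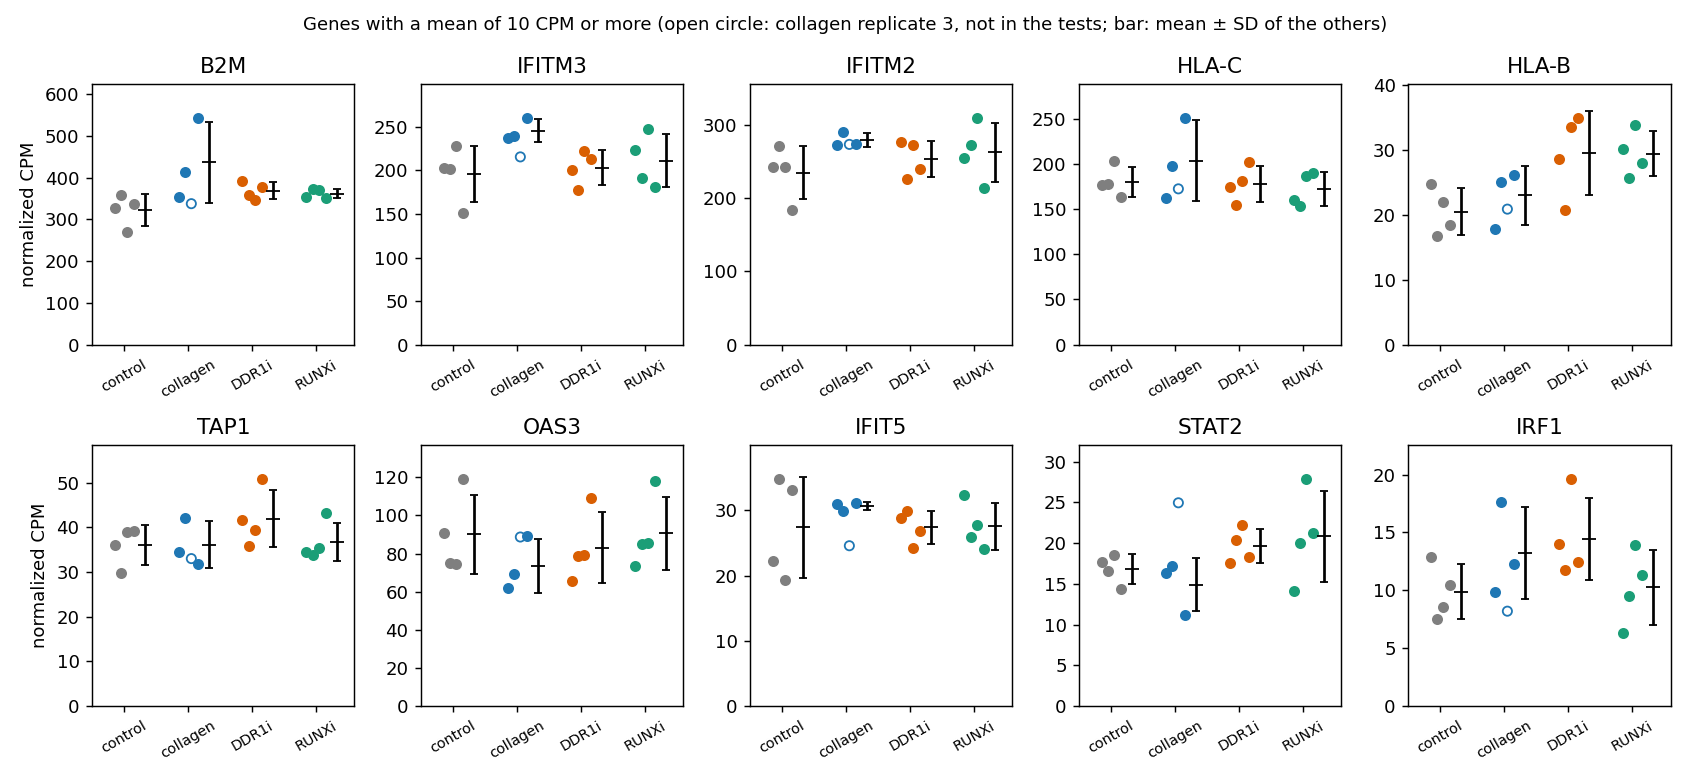
Normalized CPM of the 10 most abundant members in each library, by group, with the mean ± SD at the right of each group and collagen replicate 3 as an open circle that is left out of the mean. The B2M value of collagen replicate 4 (544 CPM) stands above the other 15 libraries, and no group is separate from all the others in any panel.

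The inhibitors were also compared with each other, at their own doses of 2 and 5 μM. No member differed between DDR1i and RUNXi, where 0.568% of genes did. In the edgeR test no member had an unadjusted p under 0.05, where 6.19% of all genes tested did. DESeq2 called 0 members, and over all the alternative settings 53 to 163 genes were called. The smallest edgeR adjusted p of a member was 0.834. The groups overlapped for every member (4.49% of all genes did not overlap). IRF1 averaged 14.5 ± 3.56 CPM with DDR1i and 10.3 ± 3.22 CPM with RUNXi (SD, n = 4 each), a log2 fold change of 0.50 ± 0.26 (SE) with a 95% interval from -0.03 to 1.03. It was 0.31 without DDR1i replicate 3 and 0.32 without RUNXi replicate 1. ISG15 averaged 4.62 ± 1.92 and 2.64 ± 1.83 CPM, with a log2 fold change of 0.82 and an interval from -0.19 to 1.83. It was 0.54 without DDR1i replicate 3 or without replicate 4 of every group, and 1.30 without RUNXi replicate 3. OAS2 had no count in 3 of the 4 RUNXi libraries, and its interval ran from -0.84 to 6.23. Without RUNXi replicate 4, the only library of its group with a count of OAS2, the RUNXi group is at 0 and no fold is given. IFIT3 (0.65, interval -0.40 to 1.71) and TAP1 (0.19, interval -0.12 to 0.50) were next by p-value. The estimate of IFIT3 was 0.37 without DDR1i replicate 1 and 0.36 without RUNXi replicate 1, and that of TAP1 was 0.085 without DDR1i replicate 4. B2M averaged 369 and 362 CPM, a log2 fold change of 0.03 with an interval from -0.21 to 0.26.

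Collagen alone and the control did not differ in any member, nor in any other of 13092 genes (0%), in the edgeR test. At an unadjusted p under 0.05 there were 2 members and 1754 genes in all, and DESeq2 called 414 genes, with 0 members among them. Estimates were above 0 for 20 of 30 members, with a median log2 fold change of 0.17 against 0.0089 for all genes. The groups did not overlap for 3 members, IFITM2, IFITM3 and IRF9, each higher with collagen, as for 13.5% of all genes. Collagen replicate 3, left out of these tests, had 215 CPM of IFITM3, below the highest control library (228 CPM), and lay above all controls for IFITM2 and IRF9.
B2M averaged 323 ± 38.1 CPM in the control (SD, n = 4) and 437 ± 96.8 CPM with collagen (SD, n = 3), a log2 fold change of 0.44 ± 0.15 (SE) with an edgeR adjusted p of 0.217. It was 0.25 without collagen replicate 4, 0.28 without replicate 4 of both groups, 0.35 with collagen replicate 3 included, and 0.10 with the trend of counts with transcript length removed from each library. IFITM3 averaged 196 ± 32.1 CPM in the control (0.33 ± 0.14, edgeR adjusted p = 0.324, 0.19 without replicate 4 of both groups and 0.0044 with the length trend removed) and IFITM2 235 ± 36.4 CPM against 279 ± 9.36 CPM with collagen (0.25 ± 0.14, edgeR adjusted p = 0.463, 0.15 without control replicate 4, 0.40 without control replicates 2 and 3 and -0.06 with the length trend removed). OAS3 averaged 90.0 ± 20.8 and 73.4 ± 14.1 CPM (-0.29 ± 0.19, edgeR adjusted p = 0.536). Its estimate was -0.13 without control replicate 4, -0.18 without collagen replicate 1, -0.45 without collagen replicate 4, -0.51 without control replicates 2 and 3 and -0.07 with the length trend removed. IRF9 measured 3.36, 2.38, 0 and 3.19 CPM in the control libraries and 3.82, 6.37, 5.31 and 5.90 CPM with collagen alone (1.25 ± 0.84 without collagen replicate 3, edgeR adjusted p = 0.571). Its estimate was 0.72 without control replicates 2 and 3 and 0.83 with a replicate block.

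**Figure D3:**
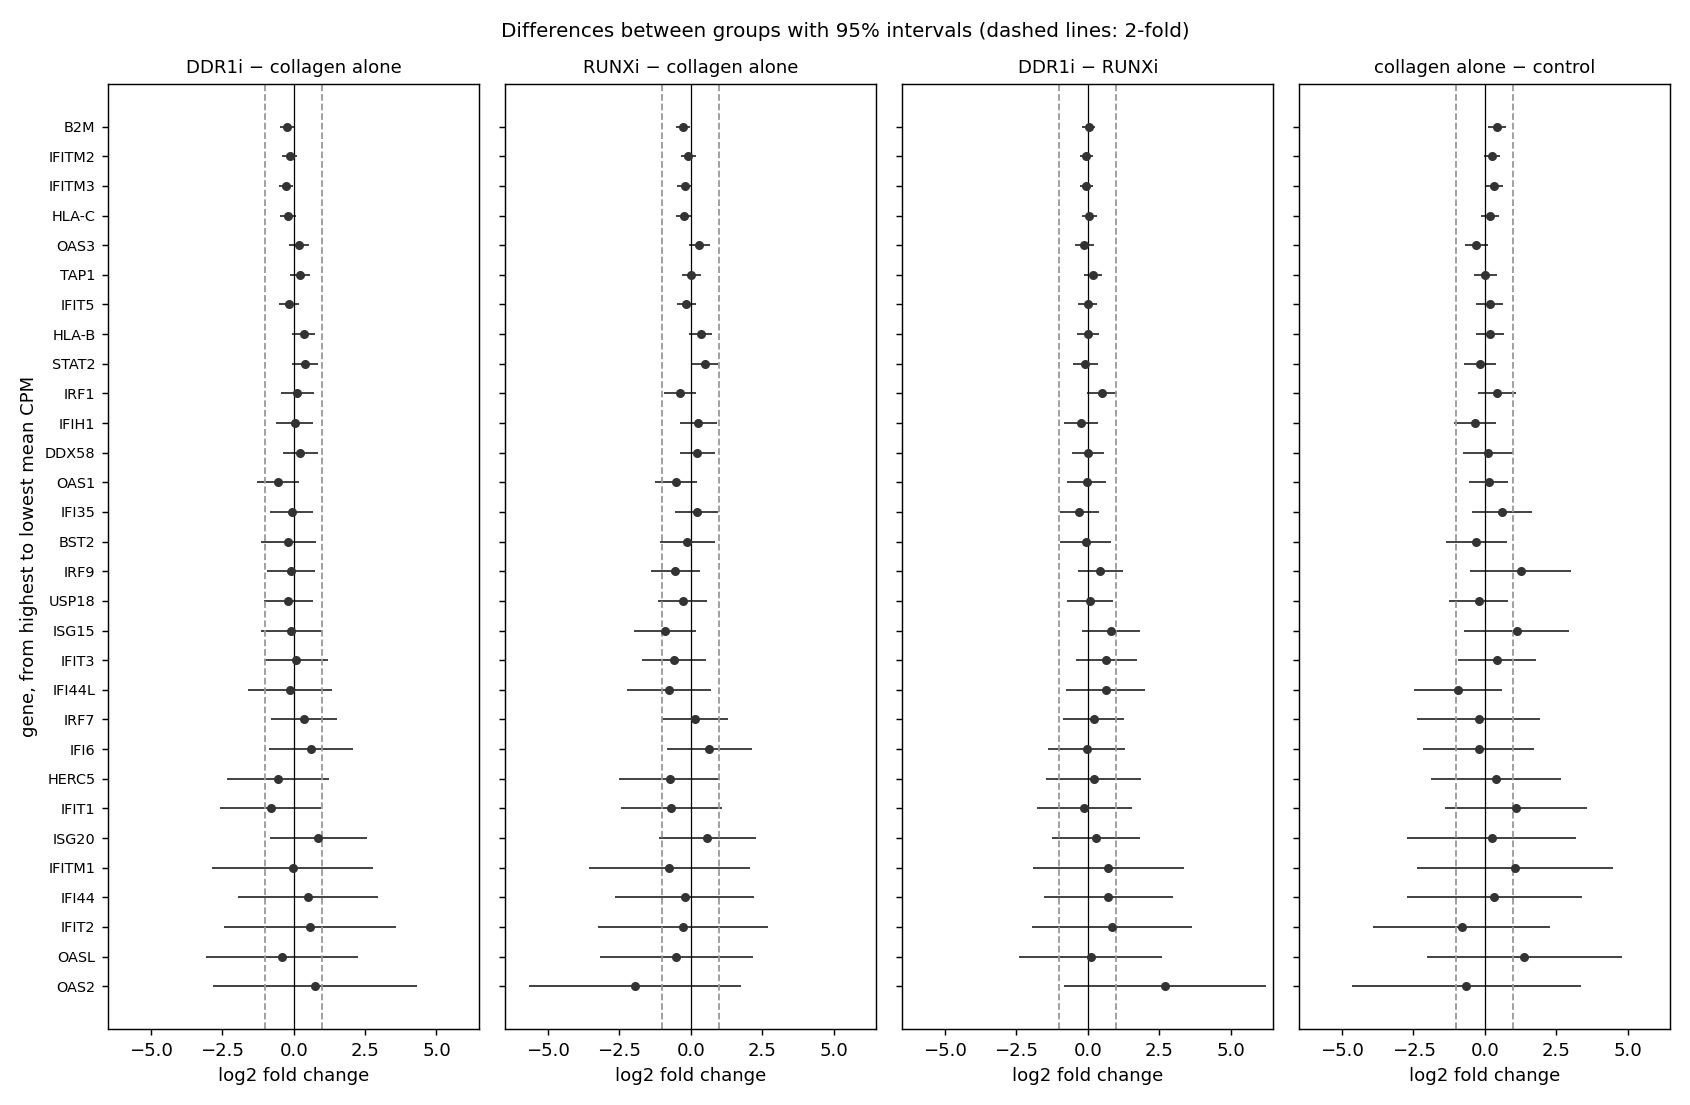
Log2 fold change of each of the 30 tested members in 4 comparisons, with 95% intervals from the edgeR fits, in order of mean CPM from top to bottom. Dashed lines mark 2-fold. Intervals of the 10 genes at the top are narrow and lie mostly within 2-fold, and those below widen as the level falls.

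The width of the intervals differed with the level. For the 10 members at 10 CPM or more, all 95% intervals lay within 2-fold for DDR1i (fold 0.694 to 1.82) and for RUNXi (0.522 to 1.93), and 9 of 10 did in each of the other comparisons. For the 20 tested members under 10 CPM only 4 of the intervals did so for DDR1i, 3 for RUNXi, 6 between the inhibitors and 2 for collagen against control. The median standard error of the log2 fold change was 0.17 for the first group and 0.64 for the second in the comparison of DDR1i with collagen alone. A change of 2-fold in ISG15 with DDR1i (fold 0.943, interval 0.449 to 1.98) lay just outside the interval upwards and inside it downwards. For IFIT1 (0.576, interval 0.169 to 1.96) the same was true, and for OAS2 (1.67, interval 0.141 to 19.8) such a change lay within the interval in both directions. Counts of ISG15 ranged from 0 to 173 per library. Counting error and the spread between libraries were not separated here.

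**Figure D4:**
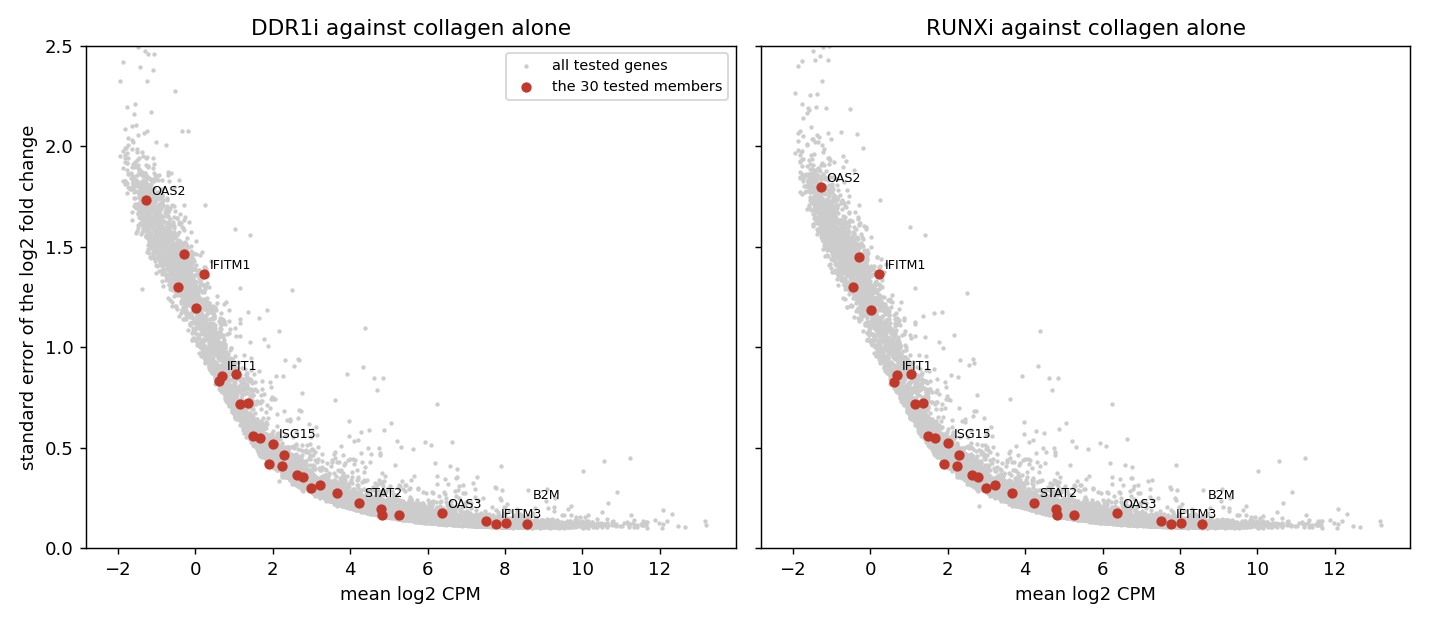
Standard error of the log2 fold change against mean log2 CPM for all tested genes (grey) and the 30 tested members (red), for each inhibitor against collagen alone. A few grey points lie above the axis limit. The members follow the trend of all genes, from about 0.12 for B2M to 1.73 for OAS2 with DDR1i.

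Related genes outside the 33 were read against the same background. Of 32 other ISGs tested, 1 rose with DDR1i (3.12%, where 2.47% of all genes passed) and, with RUNXi, 1 rose and 1 fell (6.25%, where 4.05% did). Of 13 receptor and JAK-STAT genes 1 rose with DDR1i (7.69%) and 0 changed with RUNXi. Without collagen replicate 3, 5 of the 13 did not overlap between DDR1i and collagen alone, and 4 between RUNXi and collagen alone. In the same 2 comparisons, 2 and 2 of the 32 other ISGs did not overlap. Of 11 nucleic acid sensing genes 2 and 2 did not, and of 20 other antigen presentation genes 2 and 3. Of all genes tested, 15.1% and 18.2% did not. With DDR1i, IFNGR1 (log2 fold change -0.59), TYK2 (0.49) and JAK2 (1.70) had edgeR adjusted p of 0.0571, 0.0702 and 0.0786, all above the threshold. Collagen replicate 3 had 40.3 CPM of IFNGR1 and 101 CPM of TYK2, each within the range of the DDR1i libraries. It had 3.81 CPM of JAK2, below that range, and collagen replicate 1 had 0.898 CPM of JAK2. None of 11 nucleic acid sensing genes and 20 other antigen presentation genes passed with either inhibitor, and no gene of any of these lists passed in the other comparisons (edgeR, as above).
RNF213, a very large E3 ubiquitin ligase, measured 41.1, 40.4 and 30.02 CPM in collagen replicates 1, 2 and 4. It measured 47.96, 62.2, 91.6 and 68.1 CPM with DDR1i and 55.1, 55.9, 65.2 and 63.9 CPM with RUNXi, so that neither inhibitor group overlapped those 3 libraries. It rose with DDR1i (log2 fold change 0.86 ± 0.18, edgeR adjusted p = 0.0115) and with RUNXi (0.69 ± 0.18, edgeR adjusted p = 0.0310). Collagen replicate 3 had 66.4 CPM, within the range of the inhibitor libraries, and with it included the log2 fold changes were 0.60 and 0.42 (adjusted p = 0.457 and 0.395). Its transcript has 21079 bases, where the median of the tested genes with a length was 3257 and that of the tested members 1890.5, and with a trend of counts with transcript length removed from each library they were 0.38 and 0.32 (adjusted p = 0.255 and 0.338). The call with DDR1i was lost without collagen replicate 4 (0.0630) or DDR1i replicate 3 (0.0690), and that with RUNXi without collagen replicate 4 (0.145), RUNXi replicate 3 (0.0812) or RUNXi replicate 4 (0.0691). Without replicate 4 of every group the estimates were 0.72 and 0.53 (adjusted p = 0.129 and 0.266).
JAK1, a kinase bound to interferon receptors, measured 71.0, 66.9 and 45.3 CPM in the same collagen libraries and 80.2, 96.3, 101 and 84.8 CPM with DDR1i (0.57 ± 0.15, edgeR adjusted p = 0.0469). Collagen replicate 3 had 80.5 CPM, and the log2 fold change was 0.45 with it included (adjusted p = 0.454), 0.40 with the length trend removed (0.157) and 0.42 without replicate 4 of every group (0.307). Leaving out a single library ended the call in all cases but those of collagen replicate 1 and DDR1i replicate 1, with adjusted p from 0.0506 (RUNXi replicate 4) to 0.221 (collagen replicate 4).
IFI16, a sensor of DNA, measured 241, 221 and 169 CPM with collagen alone and 157, 148, 123 and 135 CPM with RUNXi (-0.58 ± 0.16, edgeR adjusted p = 0.0480). Collagen replicate 3 had 149 CPM, and the log2 fold change was -0.48 with it included (adjusted p = 0.278), -0.55 with the length trend removed (0.102) and -0.70 without replicate 4 of every group (0.0165). Over all alternatives it ranged from -0.71 to -0.48. The call was lost without collagen replicate 1 (0.117) or 2 (0.0934) and without any of RUNXi replicates 1 to 4 (0.0568, 0.0822, 0.129 and 0.105).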

How the data were processed

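RNA-seq of 16 MCF10A libraries was analysed, grouped by the deposited labels. Doses and times came from the methods and labels. The authors aligned 150-bp paired-end reads to hg19 (GRCh37) with STAR and deposited raw counts per gene. The counting tool, annotation and use of strand are not given in the sources used here, so that counts of paralogs and overlapping genes are uncertain. The 33 members were found by symbol (DDX58 is RIGI in the annotation). Members, gene lists and tests were chosen with earlier results of these data known.

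All genes were tested with the robust quasi-likelihood fit of edgeR 4.0.16 (R 4.3.3) after TMM scaling and filterByExpr, and p-values were adjusted by Benjamini-Hochberg (threshold 0.05). The inhibitors were fitted in 11 libraries (13548 genes) and collagen against control in 7 (13092 genes), both without collagen replicate 3. Intervals are 95% intervals of the fit. Full statistics are given for the 5 members with the smallest p in each comparison with collagen alone, since none passed. Between the inhibitors, intervals are given for the 5 such members, and group means among them only for IRF1 and ISG15. Values in each library are given for the 3 members with the highest level per length, and other members were chosen for such values after they were seen. Gene positions and lengths came from the GENCODE annotation on GRCh37, which matched 21987 names (1314 by older symbols). The tests were tried on simulated counts with known changes. Alternatives were DESeq2 1.42.0, RLE size factors, no filter, collagen replicate 3 included, all groups in 1 fit, a replicate block, removal of a length trend (spline with 4 degrees of freedom) and leaving out each library. Chosen after seeing the data were leaving out control replicates 2 and 3, leaving out replicate 4 of every group, and testing the alternatives on genes outside the members. Total counts were 12184619 to 44332378 per library, and no replicates were alike enough to be 1 library (lowest chi-square per degree of freedom 18.3). Plots were made in matplotlib 3.10.9 (Python 3.11.15).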

Additional observations from a re-analysis of the deposited data

Results flagged for a closer look

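In groups of 4 libraries, the highest or lowest value was marked where it stood far from the other 3 relative to the range of the group. Of 124 groups of values examined, 9 were marked, and chance gives about 1 in 20, or 6.2. Among members, IFIT3 was high in control replicate 1 (3.47 CPM), IFI44L in control replicate 2 (12.7 CPM) and in RUNXi replicate 2 (3.56 CPM), and IFI6 in RUNXi replicate 1 (7.17 CPM). Collagen replicate 2 was high for IFITM1 (3.50 CPM) and IFITM2 (290 CPM), and RUNXi replicate 4 for OAS2 (0.307 CPM, the other libraries of that group at 0) and DDX58 (9.68 CPM). The total count of collagen replicate 1 (17570707) was low for its group.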

How the results depend on the processing

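No member passed the threshold under any alternative: 19 for each comparison with an inhibitor and 16 for collagen against control. The smallest adjusted p of a member over these was 0.0750 for DDR1i (IFITM3), 0.0540 for RUNXi (B2M), 0.443 between the inhibitors (IRF1) and 0.0583 for collagen against control (B2M). Of the named members' fold changes, 361 kept their direction and side of the threshold, and 1 reversed: IFITM2 with collagen against control became -0.057 with the length trend removed (adjusted p = 0.984, the cause was not tested). Calls over all genes ranged from 9 (collagen replicate 3 included) to 857 (DESeq2) for DDR1i, from 60 to 1160 for RUNXi under the same settings, from 53 (without RUNXi replicate 1) to 163 (no filter) between the inhibitors and from 0 to 414 (DESeq2) for collagen against control, with 313 there in a fit of all 4 groups. Without collagen replicate 4 there were 87 calls for DDR1i and 123 for RUNXi. With control replicates 2 and 3 left out, 0 members and 0 genes passed for collagen against control. With replicate 4 of every group left out, 0 members passed in each comparison, and 73, 117, 120 and 0 genes in all. With a replicate block, 0 members passed in each comparison, and 537, 759, 154 and 0 genes in all. A correlation of deviations over 0.1 in every same-numbered pair was asked for the numbers to pair the libraries, and 7 of 24 pairs had it (range -0.09 to 0.28), of which 6 were the 6 pairs of replicate 4 (0.16 to 0.28) and 1 was a pair of replicate 2. Leaving out 1 library at a time gave 0 members in every case. Of the outcomes for JAK1, RNF213 and IFI16, 42 kept the call and 34 lost it, JAK1 also with the replicate block (adjusted p = 0.0551) and both JAK1 (0.0534) and IFI16 (0.0799) in the fit of all groups. Intervals were widest for members under 10 CPM, and how much of that was depth was not tested.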
